A study of Homo sapiens with 12 samples.

Results

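The comparison of KMS11 NTKO cells with KMS11 TKO cells sets the loss of the wild-type MMSET allele against the loss of the overexpressed one. KMS11 is a human multiple myeloma line with the t(4;14) translocation, which places MMSET (also called NSD2) under immunoglobulin heavy-chain regulatory elements. NTKO cells keep only the rearranged, overexpressed allele. TKO cells keep only the wild-type allele, and TKO1 and TKO2 are separate clones of them. All were derived from KMS11 by homologous recombination and grown in the same medium as the parental line (WT), which keeps both alleles. Of the 12 arrays of the series, 9 enter the comparison: 3 of NTKO, 3 of TKO1 and 3 of TKO2. The 3 WT arrays serve as the line that all share. NTKO is a single line, so a change particular to that line and a change due to the retained allele cannot be told apart. The labels do not say whether arrays with different replicate numbers came from separate cultures, so the p-values below measure only the spread between arrays.

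MMSET is a histone methyltransferase that places dimethylation on lysine 36 of histone H3, a mark of transcribed chromatin. EZH2, the catalytic subunit of Polycomb repressive complex 2, places the repressive trimethyl mark on lysine 27 of the same histone tail, and methylated lysine 36 hinders it. In t(4;14) myeloma the overexpressed MMSET raises lysine 36 methylation across the genome and lowers lysine 27 methylation, so genes held silent by Polycomb and genes of the B-cell and plasma-cell program are of interest in these lines. Myeloma cells are malignant plasma cells and carry a large secretory apparatus for antibody production.

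Each array measured RNA on an Illumina beadchip of 48803 probes, and 9857 genes with a detected probe were tested. Values are log2 intensities after background correction and quantile normalisation, on which 1 unit is a 2-fold difference and undetected genes lie near the low end. On the arrays 8832 to 9638 genes were detected. The NTKO arrays were not alike. NTKO replicates 1 and 3 correlated at 0.994 across genes, while NTKO replicate 2 correlated with them at 0.941 to 0.944 and with the WT arrays at 0.973 to 0.978. Replicates 1 and 3 correlated with WT at 0.948 to 0.951. TKO1 and TKO2 arrays correlated with each other at 0.977 to 0.99. Differences are therefore given with all 3 NTKO arrays and, for many gene lists and genes in which the arrays part, also with NTKO replicates 1 and 3 and with NTKO replicate 2 alone. With replicate 2 alone NTKO has 1 array. Calls and p-values then take their spread from the TKO and WT arrays and do not measure the spread within NTKO. The lines carried most plasma-cell markers of their label: 7 of 8 plasma-cell and myeloma markers were detected on all NTKO arrays and 6 on all TKO arrays. SLAMF7 was detected on no NTKO or TKO array and CD38 on no TKO array. The summed marker level was 13.66 to 14.19 on NTKO arrays and 13.79 to 14.1 on TKO arrays. No marker of T and NK cells (6) or of myeloid cells (7) was detected on every array of NTKO or of TKO, though CD8A, GNLY and LYZ were detected on some. Of 7 stromal, endothelial and epithelial markers, PECAM1 was detected on every NTKO and TKO array and 5 on none. The summed level of 5 B-cell markers was 8.54 to 8.97 on NTKO arrays and 7.11 to 7.41 on TKO arrays. Among them CR2 averaged 8.27 in NTKO and 4.67 in TKO. CD79B and MS4A1 were lower in NTKO, at 4.81 against 5.58 and 4.8 against 5.17. PAX5 and CD22 were detected on no NTKO or TKO array. The summed level of 4 erythroid and megakaryocyte markers was 6.81 to 6.93 on NTKO arrays and 7.66 to 8.39 on TKO arrays. Of these 4 markers, 3 were detected on no NTKO or TKO array. Their part in the results below was not tested.

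The NSD2 probe read 6.09, 6.29 and 6.43 on NTKO replicates 1, 2 and 3, against a TKO range of 5.44 to 6.07 with a median of 5.65, and the groups did not overlap. The difference was 0.59 ± 0.17 (SE), or 1.51-fold, with a limma adjusted p of 0.0142, and the probe averaged 6.36 in WT. It was 0.58 with NTKO replicates 1 and 3 (adjusted p = 0.0133) and 0.61 with replicate 2 alone (adjusted p = 0.103). Without NTKO replicate 3 it was 0.51 (adjusted p = 0.0853). How the probe lies to the disrupted part of the gene is unknown, so this value does not measure how much functional transcript each line makes. FGFR3, the receptor tyrosine kinase gene that the same translocation activates, read 13.25, 13.18 and 13.21 on the NTKO arrays against 13.26 to 13.65 on the TKO arrays, a difference of −0.18 (adjusted p = 0.192) that turned to 0.07 under median centring. EZH2 read 9.61, 9.5 and 10.21 on NTKO arrays against 9.59 to 10.28 on TKO arrays, and its difference of −0.07 (adjusted p = 0.832) was smaller than the spread within either group.

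Of the 9857 genes, 2938 (29.8%) differed between NTKO and the mean of both TKO clones at a limma adjusted p below 0.05. Of these, 1530 genes (15.5%) were higher and 1408 (14.3%) lower in NTKO. A change of over 2-fold was found for 575 genes that were higher and 267 that were lower. Set against TKO1 alone, 2442 genes (24.8%) were called, and against TKO2 alone 2126 (21.6%). Against TKO and each clone 952 genes were called higher and 710 lower. A further 778 genes were called against TKO1 only and 462 against TKO2 only, and 2 genes were called in opposite directions against the 2 clones. All NTKO arrays lay above all TKO arrays for 1192 genes (12.1%) and below them for 1021 (10.4%). Since bulk RNA was hybridised, fewer cells that express a gene and less of its RNA per cell cannot be told apart.

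How many genes passed depended on the NTKO arrays used, and also on their number. In simulated data the arrays shared one spread for each gene. A change of 1 unit was recovered there in 82.1% of genes with all 3 NTKO arrays and in 74.6% with replicates 1 and 3. With replicate 2 alone it was recovered in 23.9%. Fewer calls with replicate 2 alone, here and in the lists below, are therefore not by themselves a difference in RNA. The real NTKO arrays did not share one spread, so the simulated shares do not give the power of these comparisons. With NTKO replicates 1 and 3, 2352 genes (23.9%) were higher and 2473 (25.1%) lower. With NTKO replicate 2 alone, 891 genes (9.04%) were higher and 758 (7.69%) lower. Leaving out NTKO replicate 1 gave 1040 genes higher and 818 lower, and leaving out NTKO replicate 3 gave 1024 higher and 782 lower. Of the 2938 genes, 1161 were also called the same way with NTKO replicate 2 alone, 2737 had the same sign there and 201 the opposite sign. In 141 genes NTKO replicates 1 and 3 and NTKO replicate 2 were each called against TKO in opposite directions. So a set of genes set every NTKO array apart from both clones, and another set separated NTKO replicates 1 and 3 from NTKO replicate 2 and TKO alike. Counts for the gene lists below stand against the shares of all genes. These were 15.5% higher and 14.3% lower with all 3 NTKO arrays, and 23.9% and 25.1% with NTKO replicates 1 and 3. They apply also where a list is given without them.

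**Figure D1:**
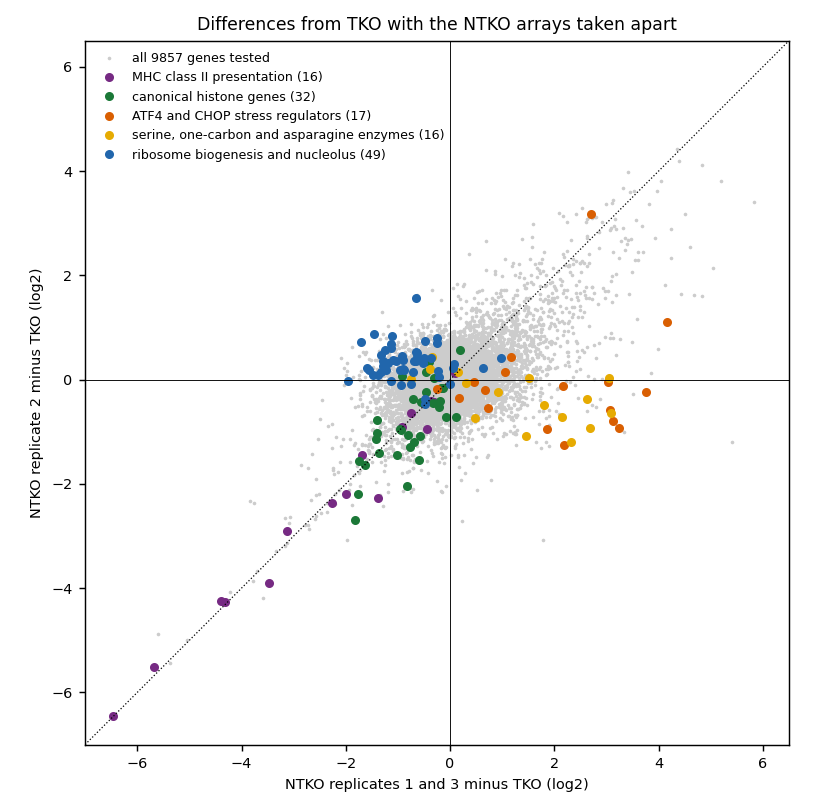
Difference from the TKO mean for each of 9857 genes, with NTKO replicates 1 and 3 on the horizontal axis and NTKO replicate 2 alone on the vertical axis (log2), and the members of 5 gene lists coloured. Histone and MHC class II genes lie near the diagonal, while ATF4-related and ribosome biogenesis genes lie along the horizontal axis or across it.

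The 15 genes most raised in NTKO and the 15 most lowered were taken from those whose NTKO and TKO arrays did not overlap. They kept their call and direction in each of the 23 other settings that tested them, including NTKO replicate 2 alone and each array left out. Choosing large differences without overlap on these same arrays favours this, so it is not independent support. Among the raised genes, 6 were detected on no TKO array and 6 on only some of them. NTKO replicate 2 was the lowest of the NTKO arrays for 14 of the 15. CA2, carbonic anhydrase II, was the exception, with 9.76, 9.91 and 9.88 on NTKO arrays, against TKO values from 4.87 to 6.04 with a median of 5.47. TEX14, a component of the intercellular bridges of germ cells, read 9.81, 9.48 and 9.57 in NTKO, against 4.8, 5.39 and 5.46 as the lowest, median and highest TKO values. Both genes were at the same level on every NTKO array, 20.8-fold and 20.1-fold above TKO, and WT was alike at 10.13 and 9.28.

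ANXA1, a phospholipid-binding protein with anti-inflammatory action, had the largest rise. It read 11.19, 8.83 and 11.32 on NTKO replicates 1, 2 and 3, against 4.54, 5.3 and 6.45 as the lowest, median and highest on TKO arrays, a difference of 5.02 ± 0.41 (limma adjusted p = 5.82e-07). HOPX, an atypical homeodomain protein, read 9.72, 8.29 and 9.63 in NTKO and 4.45 to 4.54 in TKO, where no array detected it, so it was at least 17.4-fold higher (adjusted p = 2.46e-09). Both were near background in WT (5.1 and 5.05), so that NTKO stood apart from the parental line as well. RAB31, a small GTPase of trans-Golgi and endosome traffic, read 9.9, 9.22 and 9.98 in NTKO, against 4.8, 4.96 and 5.64 in TKO, and 7.43 in WT. SNTB1, a syntrophin that links membrane proteins to the dystrophin complex, read 9.72, 6.82 and 9.69 in NTKO against 4.58 to 4.95 in TKO. Its rise of at least 12.5-fold (adjusted p = 3.92e-05) was 5.04 on the log2 scale with NTKO replicates 1 and 3 and 2.14 with replicate 2.

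The remaining raised genes belonged to varied families. LARP6, which binds the 5′ stem-loop of type I collagen mRNAs, read 9.42, 7.93 and 9.11 in NTKO against 4.63 to 4.93 in TKO and was at least 13.2-fold higher (adjusted p = 9.46e-09). PLOD2, a lysyl hydroxylase of collagen telopeptides, read 8.78, 8.73 and 9.16 against 4.57 to 5.26, a difference of 3.96 (adjusted p = 3.58e-11). MTURN, maturin, known from neural development in frogs, read 9.25, 8.75 and 8.96 against 5.04 to 5.31, and the 3 genes were as high in WT (8.72, 8.93 and 9.42). KCNS3, a modifier subunit of voltage-gated potassium channels, SHTN1, a neuronal polarity protein, and RETREG1, which marks endoplasmic reticulum for autophagy, were detected on no TKO array and were at least 9.82-fold, 9.83-fold and 8.17-fold higher. THAP10 rose by 3.91, BEX2 by 3.76 and STEAP1, a metalloreductase of the plasma membrane, by 3.67. BEX2 and STEAP1 showed the widest gap among NTKO arrays. BEX2 read 12.44, 9.11 and 12.25 against a TKO maximum of 8.15, and STEAP1 read 10.24, 7.14 and 10.16 against a TKO maximum of 6.18.

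**Figure D2:**
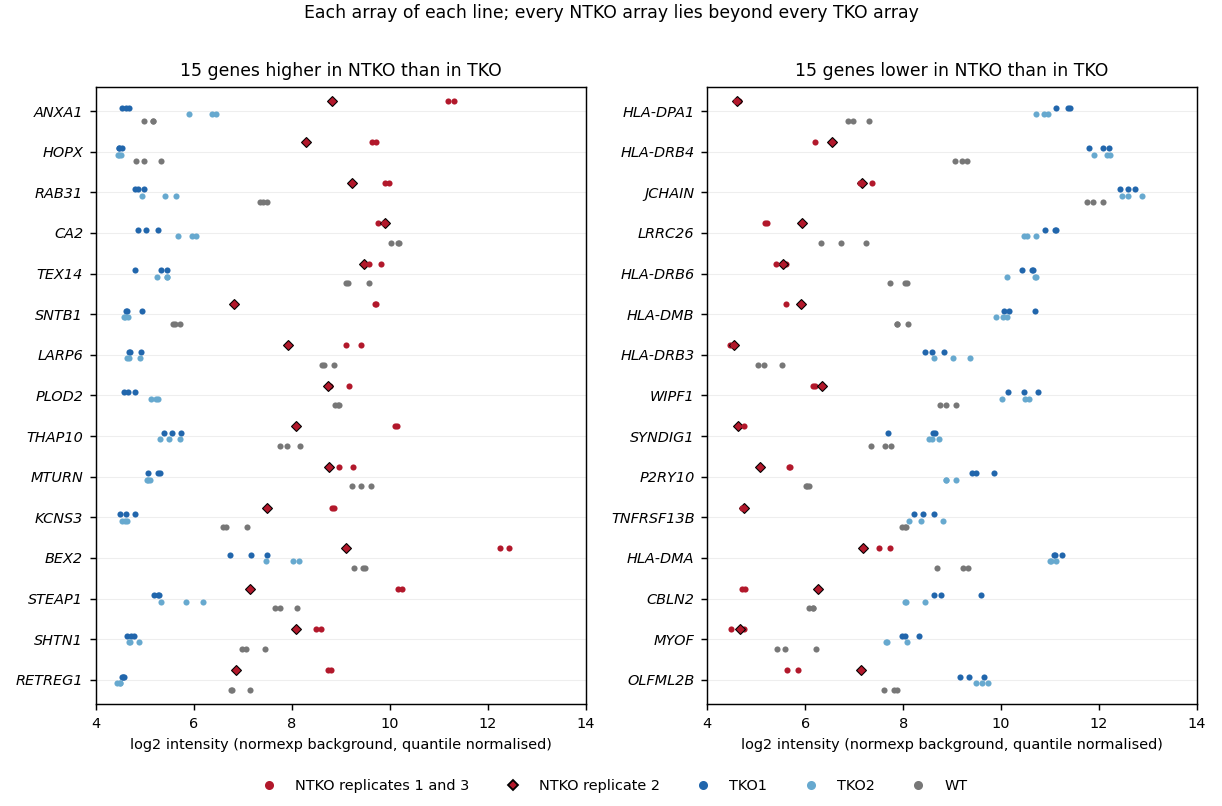
Log2 intensity on each array for the 15 genes most raised and the 15 most lowered in NTKO (red, NTKO replicate 2 as a black-edged diamond) against TKO1 (blue), TKO2 (light blue) and WT (grey). Genes were chosen for arrays that do not overlap between NTKO and TKO, and replicate 2 lies below the other NTKO arrays in 14 of the 15 raised ones.

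The most lowered genes were led by HLA-DPA1, a chain of an MHC class II molecule, and 6 of the 15 were MHC class II genes or pseudogenes. JCHAIN, the joining chain of polymeric IgA and IgM, read 7.37, 7.17 and 7.11 in NTKO, against 12.43, 12.58 and 12.87 as the lowest, median and highest TKO values. It was 42.1-fold lower in NTKO (difference −5.39 ± 0.13, limma adjusted p = 3.52e-13) and averaged 11.9 in WT. LRRC26, an auxiliary subunit of a potassium channel, read 5.18, 5.93 and 5.22 against 10.47 to 11.12, and WIPF1, which stabilises the Wiskott-Aldrich syndrome protein, 6.21, 6.34 and 6.16 against 10.01 to 10.76. For JCHAIN and WIPF1 replicate 2 was at the level of the other NTKO arrays, while for LRRC26 it lay above them.

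TNFRSF13B, the receptor TACI for the plasma-cell survival factors BAFF and APRIL, read 4.73, 4.76 and 4.71 on NTKO arrays, none of which detected it, against 8.11 to 8.82 in TKO. It was at least 10.6-fold lower in NTKO (adjusted p = 2.43e-10), while WT read 8.02. SYNDIG1, a synaptic membrane protein, was at least 10.9-fold lower and MYOF, a membrane-repair protein of the ferlin family, at least 7.63-fold lower, and neither was detected on any NTKO array. P2RY10, a lysophosphatidylserine receptor of lymphocytes, read 5.67, 5.08 and 5.7 in NTKO against 8.87 to 9.86 in TKO. CBLN2 and OLFML2B were the 2 lowered genes in which replicate 2 lay highest among the NTKO arrays by more than 1 unit, with 4.72, 6.26 and 4.78 for CBLN2 and 5.62, 7.14 and 5.86 for OLFML2B, against TKO minima of 8.04 and 9.17. The WT mean was nearer to NTKO than to TKO for 12 of the 15 raised and 11 of the 15 lowered genes.

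MHC class II molecules present peptides from endosomes to helper T cells. B cells express them and plasma cells normally shut them off. Of 20 genes of this pathway 16 were detected and tested, and of these 14 fell in NTKO and none rose, against 14.3% of all genes lower, and 13 fell with NTKO replicate 2 alone. The median difference was −1.88 for the list and −0.04 for all genes, and it was −1.58 for WT minus TKO. HLA-DPA1 read 4.64, 4.61 and 4.58 on NTKO arrays, none of which detected it, against 10.72, 11.03 and 11.41 as the lowest, median and highest in TKO, and was at least 66.1-fold lower (adjusted p = 8.7e-14). WT lay between the groups at 7.05. HLA-DRA, the shared alpha chain of HLA-DR, read 10.34, 10.56 and 10.33 in NTKO against 13.37 to 13.62 in TKO, a fall of 3.06 (adjusted p = 2.01e-11). HLA-DRB4 and HLA-DRB3, further DR beta chains, read 6.57, 6.55 and 6.2 against 11.8 to 12.22, and 4.47, 4.54 and 4.52 against 8.45 to 9.36, but near-identical DR beta genes can cross-hybridise and their values are not independent. HLA-DRB6, a pseudogene, fell by 5.03. The peptide-loading chains HLA-DMB (difference −4.34) and HLA-DMA (−3.61) fell with them.

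CD74, the invariant chain and a chaperone of class II molecules, read 11.64, 11.44 and 11.63 in NTKO against 13.39 to 13.76 in TKO, a difference of −2.06 (adjusted p = 2.84e-09). HLA-DQB1 fell by 1.69 and HLA-DPB1 was at least 3.65-fold lower. CIITA, the coactivator on which class II transcription depends, read 4.86, 4.99 and 4.63 on NTKO arrays and was detected on none of them, against 5.78, 6.53 and 7.16 in TKO, where all 6 arrays detected it. It was at least 2.67-fold lower in NTKO (adjusted p = 1.52e-05) and averaged 4.86 in WT. CIITA was thus as low in WT as in NTKO, while HLA-DPA1 was not. RFX5, a subunit of the factor that binds class II promoters, fell by 0.38 (adjusted p = 0.0267), a call lost without NTKO replicate 1 or 3, TKO1 replicate 2 or 3 or TKO2 replicate 3 (adjusted p 0.0526 to 0.0929). RFXANK and RFXAP, its partner subunits, did not pass the test. Of 18 genes of class I presentation and the immunoproteasome, 4 fell (HLA-B, HLA-E, TAP1 and CALR), 1 rose (ERAP2) and 13 did not pass, with a median of −0.14. HLA-E fell by 1.05 and TAP1, a peptide transporter subunit, by 0.73. Without NTKO replicate 1 or 3, TKO1 replicate 1 or 3 or TKO2 replicate 2 no member rose.

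Class II promoters carry a Y box, an inverted CCAAT element bound by NF-Y next to the sites of the RFX factors. It was searched as CTGATTGG on both strands in the 250 bases before the RefSeq start. It stood in 4 of 11 genes of the class II list with a window (36.4%). These were HLA-DRB1, HLA-DQB1, HLA-DMA and the regulator gene RFX5. The share was 6.69% for the tested genes and 4.59% for all genes of the RefSeq promoter table. In other lists it ran from 0% for proteasome genes to 48.4% for histone genes, with 29.4% for class I presentation. A match is a description of letters and not evidence of binding. The windows of 3 genes that fell are shown 5′ to 3′ with the Y box in capitals, on the minus strand of GRCh38.p14, at chr6:32589855-32589932 (HLA-DRB1, difference −0.91, adjusted p = 0.00032, at least 1.38-fold), chr6:32666706-32666783 (HLA-DQB1) and chr6:32953137-32953214 (HLA-DMA).
HLA-DRB1: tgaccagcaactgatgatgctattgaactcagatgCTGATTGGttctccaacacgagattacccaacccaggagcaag
HLA-DQB1: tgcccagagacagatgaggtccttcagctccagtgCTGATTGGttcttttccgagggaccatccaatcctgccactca
HLA-DMA: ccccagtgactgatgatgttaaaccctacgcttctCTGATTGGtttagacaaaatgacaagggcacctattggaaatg

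Canonical histone genes, which supply new chromatin in S phase, also included many lower genes. Of 32 tested, 18 fell (56.2%), 14 did not pass and none rose, against 14.3% of all genes lower, and every NTKO array lay below every TKO array in 16, against 10.4% of all genes. With NTKO replicate 2 alone 15 fell. The median difference was −0.8 (−0.7 with NTKO replicates 1 and 3, −0.86 with replicate 2). Without the detection filter, over 54 genes, 17 fell and the median was −0.22. H1-2, a linker histone, read 10.8, 10.32 and 10.71 in NTKO, against 12.39, 12.5 and 12.69 as the lowest, median and highest in TKO (difference −1.9, adjusted p = 1.23e-08). H2BC12 read 11.93, 11.94 and 12.04 against 13.15 to 13.58 (−1.39), H2AC18 9.82, 9.84 and 9.53 against 11.15 to 11.89 (−1.68), and H4C8 6.56, 5.68 and 6.57 against 7.87 to 8.75 (−2.11). No NTKO array reached the lowest TKO array in these genes, and the WT means of 11.49, 12.77, 10.53 and 6.85 lay between the groups. H3C4 fell by 1.63. These mRNAs end in a stem-loop and mostly lack the poly(A) tail from which the arrays were primed, so the values may reflect the polyadenylated part only, which was not measured. The Y box letters were found in 15 of 31 histone promoters (48.4%).

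The list of genes of DNA replication, which histone supply accompanies, moved less. Of 54 tested, 12 fell (22.2%) and 3 rose (5.56%; GINS2, GINS3 and PRIM1), against 14.3% and 15.5% of all genes, with a median of −0.18. POLD1, the catalytic subunit of polymerase delta, fell by 0.81 (adjusted p = 0.00599), and GINS2 and PRIM1 rose by 0.8 and 0.82. The count of lower genes was 22 with NTKO replicates 1 and 3, 2 with replicate 2 alone, 4 without NTKO replicate 1 or without NTKO replicate 3, and 7 without TKO1 replicate 3 or without TKO2 replicate 3. POLD1 (−0.57, adjusted p = 0.184) and PRIM1 (0.24, adjusted p = 0.382) did not pass with replicate 2 alone.

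Genes were also grouped by EZH2 binding, from the lists of genes with an EZH2 peak in NTKO or TKO cells that the study's supplementary data give. These lists come from the same lines and so are not independent evidence of a direction. Genes entered where all arrays of at least 1 line detected them, so a gene expressed in a single line passed through that line: 114 of 216 genes bound in TKO only, 282 of 708 bound in both and 398 of 936 bound in NTKO only. Of the 114 genes bound by EZH2 in TKO only, 76 rose and 7 fell in NTKO, against 15.5% and 14.3% of all genes, with a median difference of 0.92. Without the detection filter 195 were tested, 83 rose and 6 fell, and the median was 0.25. The counts were 82 and 11 with NTKO replicates 1 and 3, 68 and 3 with replicate 2 alone, and 72 to 82 higher and 1 to 11 lower with any array left out. WT minus TKO had a median of 0.82. Of the 282 bound by EZH2 in both NTKO and TKO, 115 rose and 21 fell, with a median of 0.29 (0.02 over 635 without the filter). Of 398 bound in NTKO only, 81 rose and 78 fell, with a median of −0.03.

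Among genes bound in TKO only or in both lines, IGF2BP2, an mRNA-binding protein, read 8.59, 8.76 and 8.72 in NTKO, against 5.02, 5.1 and 5.3 as the lowest, median and highest in TKO (difference 3.55, adjusted p = 5.01e-11). CAP2, an actin-binding protein, read 8.31, 7.49 and 8.17 in NTKO against 4.49 to 4.6 in TKO, where it was not detected, and was at least 7.44-fold higher. GJB2, the gap-junction protein connexin 26, read 9.53, 8.29 and 9.51 against 4.89 to 6.01. WT resembled NTKO in these 3 genes, at 8.98, 7.84 and 8.18. TBC1D9, a GTPase-activating protein for RAB proteins, rose by 3.4, and SH3BGRL2 was at least 6.36-fold higher. Of 27 Polycomb genes themselves, 6 fell (22.2%) and 3 rose (11.1%; PCGF1, PCGF5 and PHC1), against 14.3% and 15.5% of all genes. With NTKO replicates 1 and 3, 8 fell and 5 rose, against 25.1% and 23.9% of all genes. The medians were −0.15 there and −0.04 with replicate 2. CBX2, a reader of lysine 27 methylation, fell by 0.83 (adjusted p = 0.00134), and PCGF5 rose by 1.26 (0.49 with NTKO replicate 2, adjusted p = 0.247). Without NTKO replicate 1 or 3 the lower genes numbered 2 and 1. Of 12 enzymes of lysine 36 methylation, NSD2 rose and KDM2B, a demethylase, fell (8.33% each, below the shares of all genes).

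**Figure D3:**
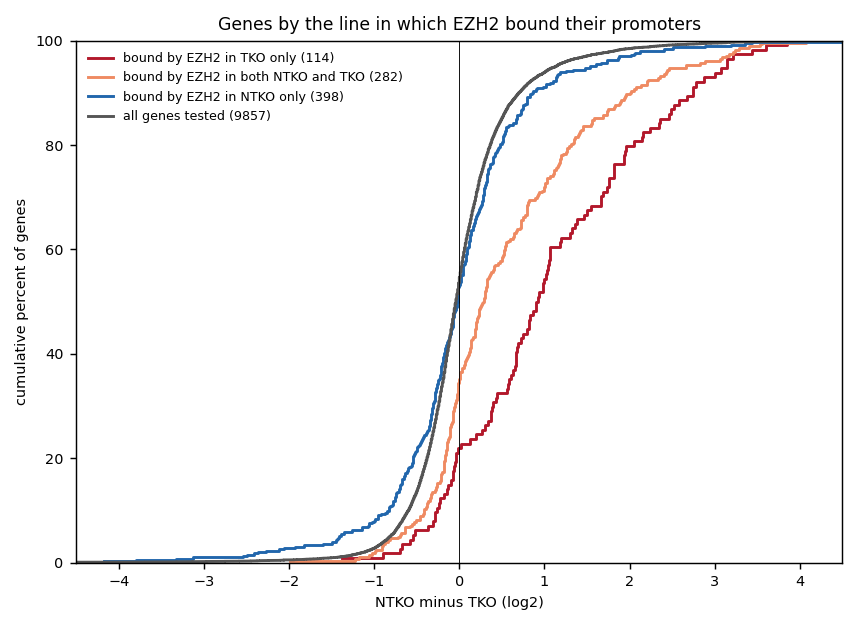
Cumulative percent of genes by NTKO minus TKO difference (log2) for genes bound by EZH2 in TKO only (114), in both lines (282) and in NTKO only (398), and for all 9857 genes. The curve of genes bound in TKO only lies to the right of the others, with a median of 0.92, and that of genes bound in NTKO only lies near the curve of all genes.

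Targets and feedback genes of the MAP kinase pathway, which FGFR3 feeds, rose more often than they fell. Of 27 tested, 12 rose (44.4%), 14 did not pass and only DUSP10 fell, against 15.5% and 14.3% of all genes. The median was 0.17 (0.02 over 34 genes without the detection filter), with 13 higher and 4 lower for NTKO replicates 1 and 3 and 9 and 2 for replicate 2 alone. JUN, a subunit of the AP-1 transcription factor, read 10.67, 9.33 and 10.62 in NTKO, against 6.19, 7 and 7.73 as the lowest, median and highest in TKO (difference 3.17 ± 0.26, adjusted p = 2.35e-07). DUSP5, a nuclear phosphatase of ERK, read 10.83, 9.95 and 10.93 against 7.98 to 9.09 (2.15). ETV5, an ETS factor induced by receptor tyrosine kinases, read 8.61, 8.22 and 8.8 against 6.54 to 7.54 (1.62). These 3 genes did not overlap between the groups, and WT stood at 9.16, 9.43 and 8.4. IL1RAP, the shared subunit of interleukin-1 family receptors, was at least 6.23-fold higher, SPRED2, an inhibitor of RAF activation, rose by 1.03 and MYC by 0.54 (adjusted p = 0.00274). DUSP10, a phosphatase of JNK and p38, was at least 1.56-fold lower. Without NTKO replicate 1 or without NTKO replicate 3, 7 of the 27 were higher and DUSP10 lower.

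Transcription factors that set B-cell and plasma-cell identity went both ways. Of 23 tested, 10 fell (43.5%) and 4 rose (17.4%; IRF4, BACH2, FOXO1 and TOX2), against 14.3% and 15.5% of all genes, with a median of −0.36 (−0.14 over 31 without the detection filter). With NTKO replicates 1 and 3, 13 fell and 5 rose (median −0.46), and with replicate 2 alone 6 fell and 1 rose (median −0.17). SPIB and MEF2C, factors of mature B cells, fell by 2.03 and 2.06, and POU2AF1, the coactivator OCA-B of immunoglobulin genes, fell by 1.17 (adjusted p = 4.31e-05). BACH2, a repressor that delays plasma-cell differentiation, read 7.91, 6.65 and 7.9 in NTKO, against 5.5, 5.62 and 6.21 in TKO (difference 1.77, adjusted p = 8.2e-05), and was 0.93 higher with NTKO replicate 2 alone. IRF4, on which myeloma cells depend, rose by 0.62 (adjusted p = 0.00231) and by 0.48 with replicate 2 alone (adjusted p = 0.0922). The higher factors numbered 2 without NTKO replicate 3.

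Among 21 genes of the plasma-cell surface and secretion, 9 fell (42.9%) and 4 rose (19%; TNFRSF17, SDC1, CD38 and ST6GAL1), against 14.3% and 15.5% of all genes. The median was −0.27, and −0.24 with NTKO replicate 2 alone. Over 30 genes without the detection filter it was −0.09. CD38, an ectoenzyme and a target of myeloma antibodies, read 7.45, 7.6 and 7.52 on NTKO arrays, against 4.44 to 4.78 on TKO arrays, none of which detected it, and was at least 5.37-fold higher (adjusted p = 6.18e-10). CR2, the complement receptor CD21, is a B-cell marker and not a member of this list. It read 8.07, 8.65 and 8.1 against 4.54 to 4.86 and was at least 9.03-fold higher. LAX1, an adaptor that dampens antigen-receptor signals, read 4.95, 5.57 and 5.16 against 7.91 to 8.47 (difference −2.99, adjusted p = 1.22e-09). CXCR4, the receptor that retains plasma cells in marrow, fell by 0.98, and CCR10, a receptor of IgA plasma cells, was at least 2.9-fold lower. In WT the level of CR2 (8.53) was like NTKO, that of LAX1 (7.41) nearer TKO and that of CD38 (5.68) between them.

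Of 37 actin regulators of blood cells, 10 fell (27%), 4 rose (10.8%; WASF3, ARHGDIB, LSP1 and EVL) and 23 did not pass, against 14.3% and 15.5% of all genes, with a median of −0.24. The counts were 13 lower and 5 higher with NTKO replicates 1 and 3, and 6 and 3 with replicate 2 alone. LCP1, the actin-bundling protein L-plastin, read 6.39, 6.18 and 6.02 in NTKO, against 8.86, 9.34 and 9.82 as the lowest, median and highest in TKO (difference −3.17, adjusted p = 4.97e-09). CORO1A, coronin 1A, read 8.87, 9.15 and 8.69 against 11.19 to 11.49 (−2.45). Both fell on every NTKO array, and WT was like NTKO for LCP1 (5.95) and between the lines for CORO1A (10.22). WASF3, a driver of branched actin, rose by 1.36 and EVL, an actin-elongation factor, by 1.12. Of 18 integrins and their regulators, 6 fell (33.3%) and 5 rose (27.8%; ITGA2, ITGA6, ITGB1, ITGB3BP and FERMT2), with 7 lower and 5 higher for NTKO replicates 1 and 3 and 2 lower and 3 higher for replicate 2 alone. ITGAL, the alpha chain of LFA-1, was at least 5.29-fold lower, and ITGA4, the alpha chain of VLA-4, fell by 1.65. The integrin-activating kindlins went opposite ways. FERMT1 fell by 1.3 (0.5 with NTKO replicate 2 alone, adjusted p = 0.118), while FERMT2 read 6.98, 6.86 and 6.74 against 4.57 to 4.72 and was at least 3.4-fold higher. Without NTKO replicate 3 the integrins that rose numbered 2, and without NTKO replicate 1 those that fell numbered 3.

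Of 29 genes of the NF-kB pathway, which the BAFF and APRIL receptors also feed, 11 fell (37.9%) and 3 rose (10.3%; TNFAIP2, CCL3 and CFLAR), against 14.3% and 15.5% of all genes, with a median of −0.44 (−0.24 over 38 without the detection filter). With NTKO replicates 1 and 3, 13 fell and 4 rose, with replicate 2 alone 8 fell and 1 rose, and 7 fell without TKO2 replicate 3 or without the filter. TNFAIP3, the ubiquitin-editing inhibitor A20 and itself a target of the pathway, read 8.41, 9.35 and 8.41 in NTKO, against 10.47, 10.61 and 10.96 as the lowest, median and highest in TKO (difference −1.94, adjusted p = 1.97e-06). NFKBIE, an inhibitor of NF-kB, read 5.96, 6.74 and 5.9 against 7.41 to 8.39 (−1.82), NFKB2 fell by 0.66 and LTB, lymphotoxin beta, was at least 2.02-fold lower. No NTKO array reached the TKO range for TNFAIP3 or NFKBIE. CCL3, a chemokine that activates osteoclasts, was higher in NTKO, with 8.5, 6.22 and 8.27 against 4.79, 5.44 and 6.08 (difference 2.25, adjusted p = 0.000515), and was 0.81 higher with replicate 2 alone. TNFAIP2 rose by 1.54. Of 32 cytokines, chemokines and their receptors, 12 fell (37.5%) and 4 rose (12.5%; CCL3, IL2RB, IL13RA1 and TGFBR3), with 13 and 9 for replicates 1 and 3 and 10 and 3 for replicate 2. The median of this cytokine list was −0.36. Over 60 genes without the detection filter it was −0.06, and 11 fell and 5 rose. TGFBR2, the type II receptor of TGF-beta, read 5.58, 5.71 and 5.84 in NTKO against 7.09 to 8.7 in TKO (−2.21, adjusted p = 2.85e-08). IL2RB, the interleukin-2 receptor beta chain, read 6.28, 6.88 and 5.96 against 4.71 to 5.08 (1.49).

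Of 24 axon guidance genes, 8 rose (33.3%) and 2 fell (8.33%; SLIT1 and ROBO1), against 15.5% and 14.3% of all genes, with 9 and 4 for NTKO replicates 1 and 3 and 5 and 2 for replicate 2 alone. The median of these axon guidance genes was 0.18. Over 56 genes without the detection filter it was −0.02, and 9 rose and 2 fell. The shares of all genes were then 7.99% and 6.26%. CRMP1, a mediator of semaphorin signals, read 7.82, 7.79 and 7.81 in NTKO against 4.64, 4.9 and 5.47 in TKO (difference 2.85, adjusted p = 8.12e-09). EPHB1, an ephrin receptor, rose by 1.27 and SLIT1 fell by 2.06. Of 20 collagens and collagen-modifying enzymes, 7 rose (35%) and 5 fell (25%; COL6A1, COL9A2, COL24A1, PLOD3 and PPIB), with 9 and 5 for replicates 1 and 3 and 4 and 5 for replicate 2. The genes that rose were all enzymes, chaperones or binding proteins of collagen, with PLOD2 and LARP6 above, P4HA1, a prolyl hydroxylase subunit, at 1.23 (0.67 with NTKO replicate 2, adjusted p = 0.0734) and P4HA2 at least 2.29-fold higher. Of 15 annexins and S100 proteins, 5 rose (ANXA1, ANXA4, ANXA11, S100A10 and S100A11) and 3 fell (ANXA6, ANXA7 and S100A1), with 8 and 3 for replicates 1 and 3, and 4 rose with replicate 2. The medians of the collagen and annexin lists were 0.24 and 0.19. Without the detection filter they were 0 over 41 genes and 0.03 over 29 genes. S100A10, which forms a tetramer with annexin A2, read 11.87, 11.11 and 11.84 in NTKO against 7.66, 8.43 and 9.11 in TKO (3.16, adjusted p = 2.04e-08). ANXA6 fell by 1.1, and by 0.37 with replicate 2 alone (adjusted p = 0.216). FADS1, the delta-5 desaturase of fatty acids, read 8.63, 7.8 and 8.58 against 4.52 to 5.96 (3.14), and LSS, lanosterol synthase of the cholesterol pathway, 8.88, 8.79 and 8.65 against 10.16 to 10.94 (−1.62). The cholesterol and fatty acid list as a whole had 2 higher (7.41%; SCD and FADS1) and 4 lower (14.8%; PMVK, SQLE, LSS and FASN) of 27. The lower share was near the 14.3% of all genes and the higher share below the 15.5%. With replicates 1 and 3, 5 were higher and 7 lower. The median was −0.09 with replicates 1 and 3 and −0.06 with replicate 2.

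The stress-response and ribosome groups that follow divided the NTKO arrays. ATF4 is the transcription factor of the integrated stress response, which amino acid shortage, protein misfolding and other stresses switch on through eIF2alpha, and CHOP (DDIT3) is one of its effectors. Of 17 regulators of this response, 15 rose with NTKO replicates 1 and 3, against 23.9% of all genes, and none fell. With NTKO replicate 2 alone 2 rose (STC2 and CEBPD) and 2 fell (CHAC1 and PPP1R15A). The medians were 2.16 and −0.2, and WT minus TKO was also −0.2. With all 3 arrays 7 rose, and 3 without NTKO replicate 1 or without NTKO replicate 3.

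DDIT3 read 11.63, 7.58 and 11.36 on NTKO replicates 1, 2 and 3, against 7.61, 8.48 and 9.09 as the lowest, median and highest in TKO. INHBE, an inhibin beta chain induced in stress, read 12, 5.26 and 11.71 against 4.7, 6.59 and 7.57. ATF3, a stress-induced repressor, read 10.21, 6.31 and 10.39 against 5.75, 6.63 and 7.2. In each of these genes replicates 1 and 3 lay above every TKO array, and replicate 2 fell inside the TKO range or just below it. Averaging over the 3 arrays gave 1.81 for DDIT3 (adjusted p = 0.0806), 3.2 for INHBE (adjusted p = 0.083) and 2.43 for ATF3 (adjusted p = 0.0231). TRIB3, a pseudokinase that restrains ATF4, gave 3.02 with replicates 1 and 3 and −0.05 with replicate 2. CHAC1, which degrades glutathione, gave 1.86 and −0.94, and PPP1R15A, the phosphatase subunit GADD34 that ends the response, gave 2.18 and −1.25, so that replicate 2 was below TKO for both. ATF4 itself, regulated mainly at translation, differed by 0.46 (adjusted p = 0.000556) and −0.04. STC2, a secreted glycoprotein, and CEBPD were higher in both ways, by 4.16 and 1.1 for STC2 and by 2.71 and 3.18 for CEBPD.

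Several enzymes and transporters of amino acid supply, a process that ATF4 regulates, also divided the NTKO arrays. The part of ATF4 in this was not tested. Of 16 genes of serine, folate-dependent carbon and asparagine metabolism, 11 rose and 1 fell with NTKO replicates 1 and 3, against 23.9% and 25.1% of all genes. The median was 1.48 there and −0.31 with replicate 2 alone. With all 3 arrays PHGDH, PSAT1 and MTHFD2 rose and ALDH18A1 fell, and none of the 4 passed without NTKO replicate 1 or without replicate 3. ASNS, asparagine synthetase, read 12.61, 9.83 and 12.76 in NTKO against 10.03, 10.68 and 10.71 in TKO. PHGDH, the first enzyme of serine synthesis, read 12.64, 9.63 and 12.64 against 8.85, 10.16 and 10.65. PSAT1, the next enzyme, read 11.34, 8.36 and 11.42 against 7.65, 8.4 and 8.75. Replicates 1 and 3 exceeded every TKO array for the 3 genes, by 2.14 (adjusted p = 6.08e-09 for ASNS), 2.62 and 3.05 on average, and replicate 2 lay below the TKO median. Over all 3 arrays the adjusted p was 0.104 for ASNS, 0.0464 for PHGDH and 0.0153 for PSAT1. PHGDH lost its call without any array other than NTKO replicate 2 or WT replicate 1 (adjusted p 0.0536 to 0.25). MTHFD2, a mitochondrial folate enzyme, gave 1.51 and 0.03.

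SLC6A9, a glycine transporter, read 9.21, 4.83 and 9.13 against 4.97, 5.95 and 6.19 in TKO, and SLC38A2, a neutral amino acid transporter, 11.12, 8.81 and 11.14 against 9.09, 9.36 and 9.75. Replicate 2 was thus below every TKO array in both. SLC7A2, a transporter of cationic amino acids, ran the other way, at 0.69 with replicates 1 and 3 and 2.65 with replicate 2. Of 17 transporters, 8 rose and 2 fell with replicates 1 and 3, against 23.9% and 25.1% of all genes. The median was 0.38 there and −0.14 with replicate 2. With all 3 arrays 3 rose (17.6%; SLC7A2, SLC36A4 and SLC38A1) and 2 fell (11.8%; SLC7A6 and SLC43A2), near the 15.5% and 14.3% of all genes. The 33 aminoacyl-tRNA synthetases, which charge tRNAs, split among themselves. With replicates 1 and 3, 13 rose and 13 fell, against 23.9% and 25.1% of all genes, and with replicate 2 alone the median was −0.14. With all 3 arrays GARS1, IARS1, MARS1, SARS1 and WARS1 rose (15.2%) and FARSA, EARS2, RARS2 and TARS2 fell (12.1%), near the shares of all genes. At most 1 member was called without NTKO replicate 1 or without NTKO replicate 3, and 2 to 4 rose and 2 or 3 fell with any TKO array left out. WARS1 read 11.03, 9.39 and 11.13 against 9.26, 9.55 and 9.71 (difference 0.99, adjusted p = 0.0174), and SARS1 gave 1.46 and −0.36 (0.86 with all 3, adjusted p = 0.0481). ATF3, TRIB3, PSAT1 and WARS1 lost their call without NTKO replicate 1 or replicate 3 (adjusted p 0.0919 to 0.148), MTHFD2 likewise (0.0538 and 0.0552), and SARS1 without any array but NTKO replicate 2 (0.0579 to 0.266).

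**Figure D4:**
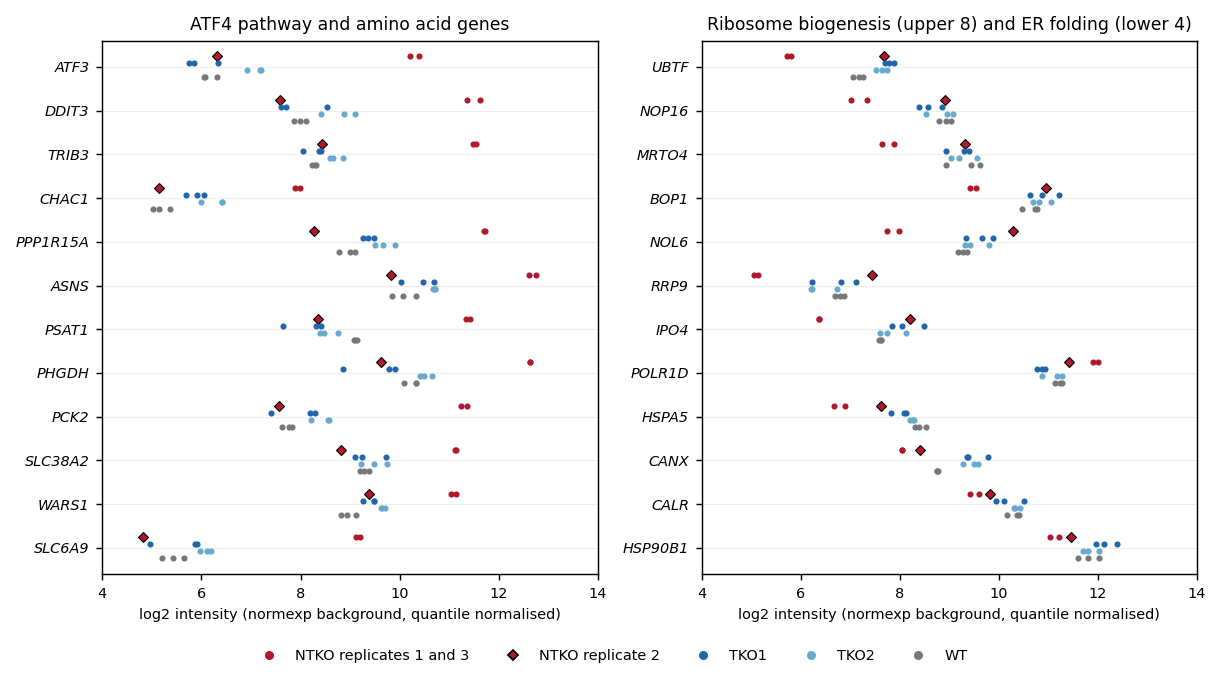
Log2 intensity on each NTKO, TKO1, TKO2 and WT array for 12 genes of the ATF4 response and amino acid supply, 8 of ribosome biogenesis and 4 chaperones and lectins of the endoplasmic reticulum, with NTKO replicate 2 as a black-edged diamond. NTKO replicates 1 and 3 stand above TKO in the first set (ASNS 12.61 and 12.76) and replicate 2 (9.83) does not.

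ATF4 and its C/EBP partners bind a composite element, searched here as TGATGNAA on both strands. It stood in the 250 bases before the start of 4 of 15 regulators with a window (26.7%) and 3 of 13 genes of serine, folate and asparagine metabolism (23.1%), against 2.32% of tested genes and 3.89% of all genes in the RefSeq table. The windows of the 4 genes below, in which the NTKO arrays parted, are shown 5′ to 3′ along the gene with the element, or its reverse complement in CHAC1, in capitals. They lie on GRCh38.p14 at chr1:212565181-212565258 (plus strand, ATF3), chr15:40953227-40953304 (plus, CHAC1), chr19:33374036-33374112 (plus, CEBPG) and chr7:97872434-97872511 (minus, ASNS). CEBPG, a C/EBP family partner of ATF4, differed from TKO by 0.73 with NTKO replicates 1 and 3 and by −0.55 with replicate 2.
ATF3: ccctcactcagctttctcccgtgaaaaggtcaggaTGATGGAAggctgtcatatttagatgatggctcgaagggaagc
CHAC1: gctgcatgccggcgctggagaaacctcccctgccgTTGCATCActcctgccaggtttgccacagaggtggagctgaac
CEBPG: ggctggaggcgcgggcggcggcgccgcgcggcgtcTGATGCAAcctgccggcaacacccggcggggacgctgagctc
ASNS: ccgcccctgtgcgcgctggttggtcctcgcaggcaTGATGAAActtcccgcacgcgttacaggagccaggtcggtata

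Ribosome biogenesis genes showed the opposite split. Of 49 tested, 40 fell and 2 rose with NTKO replicates 1 and 3, against 25.1% and 23.9% of all genes. With replicate 2 alone 10 rose and none fell, against 9.04% and 7.69% of all genes, and the medians were −0.9 and 0.32. WT minus TKO was 0.05. With all 3 arrays 11 fell and 2 rose (POLR1D and TAF1D), 3 and 1 fell without NTKO replicate 1 and without replicate 3, and 6 or 7 fell without TKO1 replicate 2 or 3 or any TKO2 array. UBTF, the factor that opens ribosomal DNA for RNA polymerase I, read 5.8, 7.68 and 5.73 in NTKO, against 7.51, 7.71 and 7.89 as the lowest, median and highest in TKO (difference −1.31, adjusted p = 0.00689, and 0.052 without NTKO replicate 3). NOL6, a small-subunit processing factor, read 7.98, 10.28 and 7.74 against 9.32, 9.53 and 9.88, and RRP9, a subunit of the U3 particle, 5.14, 7.43 and 5.06 against 6.21, 6.48 and 7.11. For NOL6 and RRP9, replicates 1 and 3 lay below every TKO array and replicate 2 above every one (0.72 and 0.87 higher).

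NOP16 and MRTO4, factors of the large subunit, fell by 0.97 and 0.96 with all 3 arrays (adjusted p = 0.03 and 0.0242) but differed by 0.19 and 0.08 with NTKO replicate 2. Both lost the call without NTKO replicate 1 or 3 (adjusted p 0.127 to 0.185) or TKO2 replicate 1 (0.0587 and 0.0516), and NOP16 also without TKO1 replicate 1 or 3 or TKO2 replicate 2 (0.0531 to 0.0613). The E box CACGTG, the site of MYC, stood in 5 of 42 ribosome biogenesis promoters (11.9%) and in 11.8% of those of tested genes. Of 49 cytosolic ribosomal proteins, 8 rose (16.3%, near the 15.5% of all genes) and none fell, with a median of 0.09. The number that rose was 16 with replicates 1 and 3, 3 with replicate 2, 2 under median centring, 1 without NTKO replicate 1 or without replicate 3, 5 without TKO1 replicate 2 and 4 without TKO2 replicate 3. Of 33 proteasome genes, 9 fell (27.3%) and 2 rose (6.06%; PSMB7 and PSMD10), against 14.3% and 15.5% of all genes. With replicates 1 and 3, 15 were lower, against 25.1% of all genes, and 2 were without NTKO replicate 1 or without replicate 3. The median was −0.28 with replicates 1 and 3 and 0.02 with replicate 2. PSMC4 fell by 1.03 (0.62 with replicate 2, adjusted p = 0.031), PSMD8 by 1 (0.31, adjusted p = 0.335) and PSMD2 by 0.85, the last with an adjusted p of 0.0903 and 0.0906 without NTKO replicate 1 and 3.

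**Figure D5:**
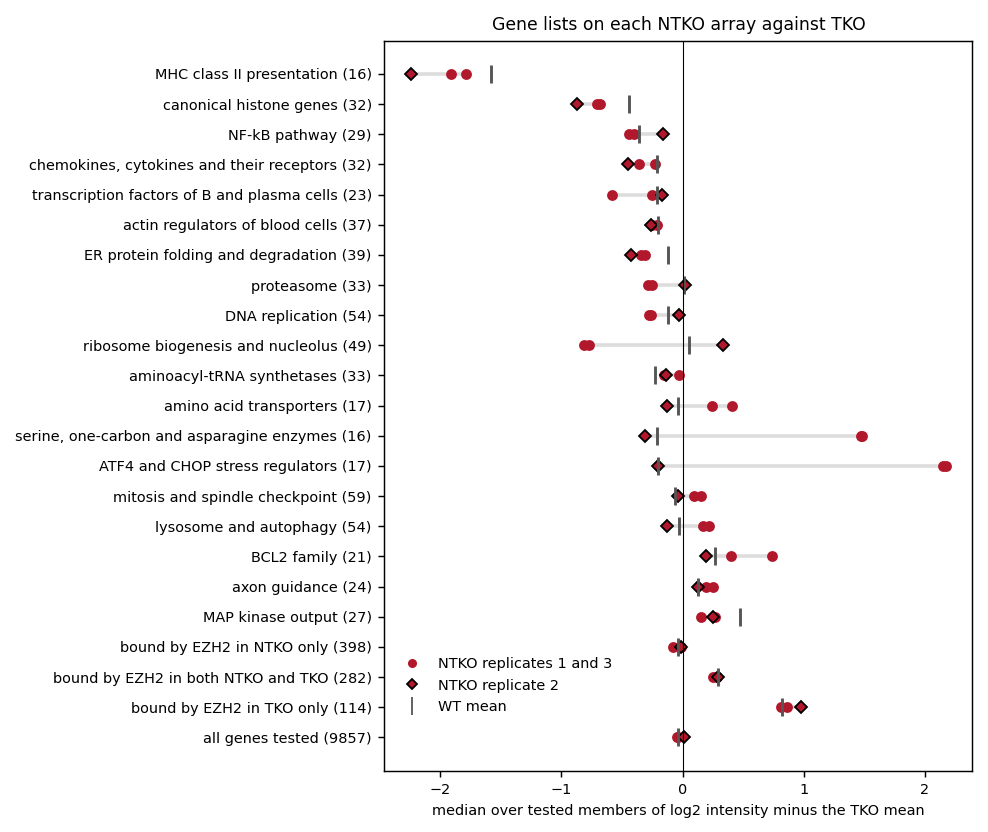
Median NTKO minus TKO difference (log2) over the members of each gene list, drawn for each NTKO array, with the WT minus TKO median as a tick. The 3 arrays lie on the same side of 0 for MHC class II (−1.79, −2.24 and −1.91) and histone genes, and replicate 2 parts from replicates 1 and 3 for the ATF4, serine and ribosome biogenesis lists, where it lies nearer WT than they do.

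Chaperones and quality-control factors of the endoplasmic reticulum, the apparatus of antibody secretion, included a large group of lower genes. Of 39 tested, 18 fell (46.2%), 21 did not pass and none rose with all 3 NTKO arrays, against 14.3% of all genes lower, and in 18 every NTKO array lay below every TKO array, against 10.4% of all genes. With NTKO replicates 1 and 3, 20 fell and 5 rose, and with replicate 2 alone 9 fell and none rose, with medians of −0.33 and −0.43. CANX, the lectin chaperone calnexin, read 8.04, 8.41 and 8.05 in NTKO against 9.27, 9.43 and 9.77 in TKO (difference −1.3, adjusted p = 5.21e-06). HSPA5, the chaperone BiP, read 6.9, 7.61 and 6.66 against 7.82, 8.16 and 8.28 (−1.07, adjusted p = 0.000346). The NTKO arrays were all below TKO for both genes. HSP90B1, the chaperone GRP94, fell by 0.76, CALR, calreticulin, by 0.66, CRELD2, a disulfide isomerase, by 0.91, SDF2L1, a BiP-associated factor, by 1.01 and VCP, the ATPase that extracts misfolded proteins, by 1.17. With replicate 2 alone these 5 and HSPA5 were lower by 0.43 to 0.53 and did not pass (adjusted p 0.0569 to 0.209). CANX alone among the named genes of the list kept its call there (−1.06).

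The ER stress element, searched as CCAAT followed after 9 bases by CCACG on both strands, stood in 8 of 35 promoters of this list (22.9%), in 15 promoters of tested genes (0.184%) and in 25 of the RefSeq table (0.0916%). The Y box above holds the reverse complement of CCAAT. The windows of 5 genes that fell are shown 5′ to 3′ along the gene, with the element in capitals and as its reverse complement in HSP90B1, CALR and CRELD2. Those of PDIA6, ERO1B and XBP1, which also hold the element, are not shown. XBP1 averaged 12.49 in NTKO and 12.63 in TKO. The 5 windows shown were picked among genes that fell, and a link of the element to the fall was not tested. They lie on GRCh38.p14 at chr9:125241356-125241444 (minus strand, HSPA5), chr12:103930286-103930374 (plus, HSP90B1), chr19:12938359-12938437 (plus, CALR), chr5:179698743-179698831 (plus, CANX) and chr22:49918519-49918607 (plus, CRELD2).
HSPA5: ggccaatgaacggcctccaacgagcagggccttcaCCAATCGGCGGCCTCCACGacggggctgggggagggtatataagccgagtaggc
HSP90B1: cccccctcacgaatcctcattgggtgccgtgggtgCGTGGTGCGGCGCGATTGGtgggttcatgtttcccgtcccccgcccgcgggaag
CALR: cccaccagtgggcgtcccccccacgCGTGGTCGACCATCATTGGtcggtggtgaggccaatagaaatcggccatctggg
CANX: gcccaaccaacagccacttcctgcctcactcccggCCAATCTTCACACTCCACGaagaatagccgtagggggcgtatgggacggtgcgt
CRELD2: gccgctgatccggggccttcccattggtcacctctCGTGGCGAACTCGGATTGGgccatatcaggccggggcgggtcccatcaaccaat

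Genes of cell death lay between these patterns. Of 21 BCL2 family members, 9 rose (42.9%) and none fell, against 15.5% and 14.3% of all genes. With NTKO replicates 1 and 3, 10 rose and 2 fell, against 23.9% and 25.1% of all genes. The median difference was 0.57 there and 0.19 with replicate 2 alone. Without NTKO replicate 1, 6 were higher, and without NTKO replicate 3, 5 were. PMAIP1, the BH3-only protein NOXA, read 11.1, 9.05 and 11.32 in NTKO against 8.08, 8.36 and 8.54 in TKO (difference 2.13, adjusted p = 0.000719), and all NTKO arrays lay above TKO. BCL2, the death inhibitor, rose by 1.3 (1.59 with replicates 1 and 3, 0.71 with replicate 2), and BIK, a BH3-only protein, by 1.02. BMF, another, read 7.64, 5.55 and 7.3 against 5.44 to 5.85, with 1.75 and −0.17, and its adjusted p of 0.0188 became 0.142 and 0.112 without NTKO replicate 1 and 3. Of 23 targets of p53, 7 rose (30.4%) and 2 fell (8.7%; FAS and CD82), against 15.5% and 14.3% of all genes. With replicates 1 and 3, 11 rose and 5 fell. The medians were 0.34 with replicates 1 and 3 and 0 with replicate 2. TNFRSF10B, the TRAIL receptor DR5 and also a target of CHOP, rose by 2.57 (3.49 and 0.73), PERP, a desmosome protein, by 2.34, and GADD45A by 1.06 (0.38 with replicate 2, adjusted p = 0.229). TP53INP1, a promoter of autophagy and death, read 9.87, 5.03 and 9.9, against 7.72, 8.19 and 8.42 in TKO. Replicates 1 and 3 were 1.78 above TKO and replicate 2 was 3.07 below it, so the mean of the 3 NTKO arrays (0.16, adjusted p = 0.909) describes none of them.

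Of 54 lysosome and autophagy genes, 11 rose (20.4%) and 2 fell (3.7%; CTSC and SGSH), against 15.5% and 14.3% of all genes, with a median of 0.06. With NTKO replicates 1 and 3, 19 rose and 4 fell (median 0.17), with replicate 2 alone 4 rose and 3 fell (median −0.12), and 8 rose without NTKO replicate 1 or without NTKO replicate 3. CTSZ, a lysosomal cysteine peptidase, was at least 2.18-fold higher. GAA, acid alpha-glucosidase, and MAP1LC3B, the autophagosome protein LC3B, rose by 1.13 and 0.88 but differed by only 0.51 (adjusted p = 0.274) and 0.15 with replicate 2. Of 28 interferon-stimulated genes, 8 rose (28.6%) and 4 fell (14.3%; IFI44, IFIH1, ISG15 and SP100). The shares of all genes were 15.5% and 14.3%, so the share that fell was that of all genes. Replicates 1 and 3 gave 11 higher and 5 lower (median 0.32), while with replicate 2 alone 2 rose and 7 fell (median −0.22). With all 3 arrays, IFI44 differed by −1.32, ISG15 by −1.07 and ISG20, an exonuclease, by 1.01. Of 34 genes of glycolysis and hypoxia, 9 rose (26.5%) and 2 fell (GPI and ADM), with 14 and 6 for replicates 1 and 3 and 9 and 4 for replicate 2, and with HK1, hexokinase 1, at 1.18 and ADM, adrenomedullin, at −1.18. Of 14 genes often used as references, SDHA, a subunit of succinate dehydrogenase, rose by 0.64 and TFRC, the transferrin receptor, fell by 1.77, with TFRC at −2.45 for replicates 1 and 3 and −0.4 for replicate 2 (adjusted p = 0.174).

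Where NTKO replicates 1 and 3 lay far above WT, replicate 2 was mostly nearer WT. Where they lay far below WT, it was mostly nearer replicates 1 and 3. The mean of replicates 1 and 3 lay more than 4-fold from WT in 96 genes, and replicate 2 was nearer WT in 75 of them and nearer replicates 1 and 3 in 21. Of the 73 higher than WT, replicate 2 was nearer replicates 1 and 3 in 6, and of the 23 lower than WT in 15. These genes were picked on replicates 1 and 3, which by itself favours a replicate 2 nearer WT.

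The clones differed from each other in few of the genes named here. Many of these genes were picked for their difference from both clones, which favours this. How alike the clones are in general cannot be read from it. FAM174B read 6.31, 6.16 and 6.02 on NTKO arrays and averaged 7.63 in TKO1, 4.83 in TKO2 and 5.76 in WT, so NTKO was 1.46 below TKO1 (adjusted p = 0.00014) and 1.33 above TKO2 (adjusted p = 0.000334). PLAG1, a zinc-finger transcription factor, read 6.59, 6.26 and 6.87 in NTKO and was 1.37 above TKO1 and 0.62 below TKO2 (adjusted p = 9.46e-05 and 0.0299). For these 2 genes the mean over the clones gives no single direction.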

How the data were processed

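RNA of KMS11 NTKO, TKO1, TKO2 and WT cells was hybridised to Illumina beadchips (HumanWG-6 v3), with 3 arrays for each line, and the sample labels gave the groups. The authors deposited background-subtracted probe intensities exported from GenomeStudio without normalisation between arrays, each with a detection p-value, and a second table of processed intensities on a linear scale (column medians 3.4 or 3.5), whose near-identical percentiles point to quantile normalisation. The deposited detection p-values come from negative control beads. The GenomeStudio version was not given in the sources used here, and since the deposited tables name neither slides nor dates, effects of slide or date could not be told apart. The study's methods describe 6 arrays a side, while the labels give 3 NTKO arrays.

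The exported intensities were background-corrected, quantile-normalised and log2-transformed with neqc of limma 3.58.1 (R 4.3.3, statmod 1.5.0, offset 16). A probe was kept where its detection p-value was below 0.05 on all 3 arrays of at least 1 line (15596 of 48803). Gene symbols came from the platform annotation, updated through RefSeq (27578 probes with 1 gene, 13 with several, 21212 with none), and the kept probe with the highest mean stood for each of 9857 genes. Line means over all 12 arrays were fitted with limma (trended, robust empirical Bayes), NTKO was contrasted with the mean of TKO1 and TKO2, and p-values were adjusted by Benjamini-Hochberg over all genes with a threshold of 0.05. Folds written "at least" concern genes detected on no array of the lower group: the higher group's mean was set against the dimmest detected probe of each array of the lower group, or the gene's own value where higher. The arrays' mean intensity was 180.8 to 299.5, and 3 arrays per line limit the precision. Scripts were tested on simulated data. Alternatives were other normalisations, filters and probe summaries, array weights, the authors' processed values, a replicate block, arrays left out and the methods' t-test.

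Members and gene lists were chosen with earlier results of these data known. The named genes are the 15 called genes with the largest difference in each direction whose NTKO and TKO arrays do not overlap, the called members of each list with the largest difference, up to 4 per list, with members needed to describe it, the 8 genes in each direction on which NTKO replicates 1 and 3 and replicate 2 part most, up to 4 in each direction called with opposite signs against the 2 clones, and NSD2, FGFR3, EZH2, reference genes and genes the study measured by quantitative PCR. Not all genes so chosen are printed, and members named only to spell out a small count were chosen after their values were seen. Promoter windows came from the RefSeq table (GRCh38.p14).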

Additional observations from a re-analysis of the deposited data

Results flagged for a closer look

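Of the 154 genes named, 7 differed between the TKO clones at a limma adjusted p below 0.05, so that NTKO against TKO1 and NTKO against TKO2 gave different sizes. TKO1 minus TKO2 was −0.84 for CA2, −1.2 for FADS1 and −2 for PLAG1, and it was 1.06 for ADM, 1.17 for TGFBR2, 1.21 for EPHB1 and 2.79 for FAM174B. The choice of the named genes favours a small count, so it does not measure how alike the clones are. NTKO kept its direction against both clones for all of these genes but PLAG1 and FAM174B. EPHB1 was 0.66 higher in NTKO than in TKO1 (adjusted p = 0.0533) and 1.87 higher than in TKO2 (adjusted p = 3.74e-05).

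In 14 of these genes 1 of the 6 TKO arrays stood far from the other 5, with a gap that took a share of the TKO range above Dixon's critical value for 6 arrays. The share was 0.852 for TBC1D9, 0.792 for SYNDIG1, 0.766 for SNTB1, 0.739 for SLC6A9, 0.691 for P4HA1, 0.685 for TEX14, 0.675 for IL1RAP and 0.661 for ASNS. It was 0.655 for HLA-DMB, 0.651 for PSMC4, 0.647 for SPIB, 0.645 for BACH2, 0.642 for ITGAL and 0.641 for HLA-E. Chance flags about 1 in 20 groups, and groups of 3 arrays were not tested this way.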

How the results depend on the processing

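The count of genes higher in NTKO than in TKO (1530) ran from 1024 to 2352 with any array left out, and the count of lower genes (1408) from 782 to 2473. Against TKO1 these ranges were 857 to 2250 and 655 to 2343, and against TKO2 859 to 2078 and 613 to 2094. The ends of each came from leaving out an NTKO array, and without TKO1 replicate 2 or 3 the genes lower than in TKO1 numbered 742 and 730. With NTKO replicate 2 alone 891 genes were higher and 758 lower (763 and 626 against TKO1). Array weights, which gave NTKO replicate 2 a weight of 0.108, called 2759 and 3054 (2535 and 2731 against TKO1, 2376 and 2545 against TKO2). Median centring called 565 genes lower than in TKO2, and 64.6% of the calls against TKO2 were then higher, against 55.3%. The methods' t-test called 317 higher and 285 lower at its own threshold and 413 and 391 after Benjamini-Hochberg. The cause of these differences in count was not tested.

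Of the 154 genes, 105 kept direction and call with NTKO replicate 2 alone, 29 kept the direction without passing and 20 changed sign. The last were ASNS (−0.71), ATF3 (−0.23), ATF4 (−0.04), BMF (−0.17), CEBPG (−0.55), CHAC1 (−0.94), DDIT3 (−0.8), INHBE (−1.2), MRTO4 (0.08), NOL6 (0.72), NOP16 (0.19), PHGDH (−0.38), PPP1R15A (−1.25), RRP9 (0.87), SARS1 (−0.36), SLC38A2 (−0.61), SLC6A9 (−1.01), TP53INP1 (−3.07), TRIB3 (−0.05) and WARS1 (−0.14). EZH2 turned to 0.12 with the mean of all kept probes, 0.17 with array weights and 0.01 to 0.07 without NTKO replicate 1 or 2 or TKO1 replicate 2, and over all arrays left out it ran from −0.29 to 0.07. FGFR3 turned to 0.07 with median centring, FAM174B to 0.01 without NTKO replicate 3 or TKO1 replicate 3, and TP53INP1 ran from −0.65 without NTKO replicate 3 (−0.64 without NTKO replicate 1) to 1.78 without NTKO replicate 2. The cause was not tested.

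Array numbers did not clearly pair NTKO with TKO arrays: deviations of same-numbered arrays correlated at −0.088 to 0.36. Between the clones, same-numbered TKO1 and TKO2 arrays correlated at 0.504, 0.1 and 0.504 for replicates 1, 2 and 3. Differently numbered arrays of the 2 clones correlated at −0.521 to 0.071. The TKO arrays may thus not all be independent of each other, and the cause was not tested. With the replicate block 1636 genes were higher and 1547 lower, and no named gene changed its call. Without the filter on dim probes the median of some lists moved by over 1.5 times. It went from 0.92 to 0.25 for genes bound by EZH2 in TKO only and from −0.8 to −0.22 for histones. For axon guidance genes it went from 0.18 to −0.02 and for cytokines from −0.36 to −0.06. The 3 NTKO arrays limit what can be said of the line, and genes near background carry only lower bounds on their folds.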
